A study of Mus musculus with 5 samples.

Results

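Collagen genes are described here in mouse embryonic hearts with and without Lrrfip2. They were taken as every probe set whose annotated symbol reads Col, a number, a and a number, which gave 44 genes of the 23279 measured, each with 1 probe set. The hearts were collected at E10.5, untreated, with 2 arrays whose genotype is given as KO and 3 arrays labelled Control. The labels give no strain, allele or Cre driver, do not give the controls' alleles, and do not tell single hearts from pools. The p-values therefore compare each group difference with the spread within the groups of these 5 samples. In limma that spread also draws on a variance shared across genes. All 16 listed cardiomyocyte markers were above the level used to set dim genes aside. All levels are on the log2 RMA scale, and every difference is the knockout mean minus the control mean.

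Collagens are proteins whose chains wind around each other in threes to form a triple helix. Fibrillar collagens assemble into the cables of connective tissue, type IV collagen forms the sheet-like network of basement membranes, and the remaining types coat fibrils, anchor layers or sit in the cell membrane. In the looping embryonic heart, fibrillar collagens are products mainly of mesenchymal cells such as those of the endocardial cushions, while basement membrane collagen lies beneath endocardium, myocardium and epicardium. Chains need hydroxylated prolines for a stable helix, and the hydroxylase enzymes use oxygen.

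Lrrfip2 was lower in the knockout arrays, at 6.36 and 6.22, against 7.33, 8.07 and 8.08 in the control arrays. The groups did not overlap. Since the sources used here do not name the deleted part of Lrrfip2, its probe set may or may not report on the deletion. Array medians lay between 5.07 and 5.11. Correlations between arrays over all probe sets were 0.986 to 0.996, the lowest being that between the knockout arrays.

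The knockout arrays differ in markers of other cells. Of 19 endoderm markers, 13 were tested and all 13 had a higher mean in the knockout, through knockout replicate 2. There the list's median shift from the control mean was 3.72, against -0.00 in knockout replicate 1 and -0.02 to 0.03 in the controls. Afp, Apom, Fgb and Apob passed the filter for dim genes only through knockout replicate 2, being under its level of 4.44 on all other arrays. The count and median shift of the tested markers are thus partly fixed by that selection. The summed linear level of the list was 447 and 8709 in knockout replicates 1 and 2, against 429 to 447 in the controls. Afp, the main serum protein of fetal liver and yolk sac, stood at 11.42 in knockout replicate 2, against 3.88 to 4.07 in the controls. In knockout replicate 1 it was at 3.86. Macrophage and blood cell markers (10 of 16 tested, 8 higher) shifted by 0.65 and 0.06 in knockout replicates 1 and 2, against -0.09 to 0.11 in the controls. Their summed level was 1085 and 587 in knockout replicates 1 and 2, against 533 to 589 in the controls. Erythroid markers (8 of 12 tested, all 8 lower in the knockout, median -0.45) shifted by -0.56 and -0.32 in knockout replicates 1 and 2, against 0.00, -0.46 and 0.40 on the control arrays. Their summed level was 10738 and 12277 in knockout replicates 1 and 2, against 14094, 10280 and 17567 in the controls. The part of these cells in the collagen results was not tested.

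No collagen gene passed the adjusted threshold of 0.05 in limma: 0 of 32 tested, as for 0 of all 13967 genes tested (0%). The other 12 collagen genes had a mean level under the 40th percentile of genes (4.44) and were set aside as dim. At an unadjusted p under 0.05 there were 3 collagen genes, beside 8.78% of all genes tested. Of these, 1 was higher (background 3.29%) and 2 were lower (background 5.49%). The groups did not overlap for 4 collagen genes, 2 with the knockout above and 2 below, beside 21.3% of all genes in either direction (8.18% above, 13.1% below). A fold of at least 1.5 was reached by 1 gene, Col2a1, which was lower (background 1% lower, 2.33% higher). The 32 genes had a median difference of -0.00, beside -0.02 over all genes tested. The counts of collagen genes with lower and higher levels, 17 and 12 with 3 at exactly 0, compare with 54.4% lower and 43.7% higher over all genes.

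**Figure D1:**
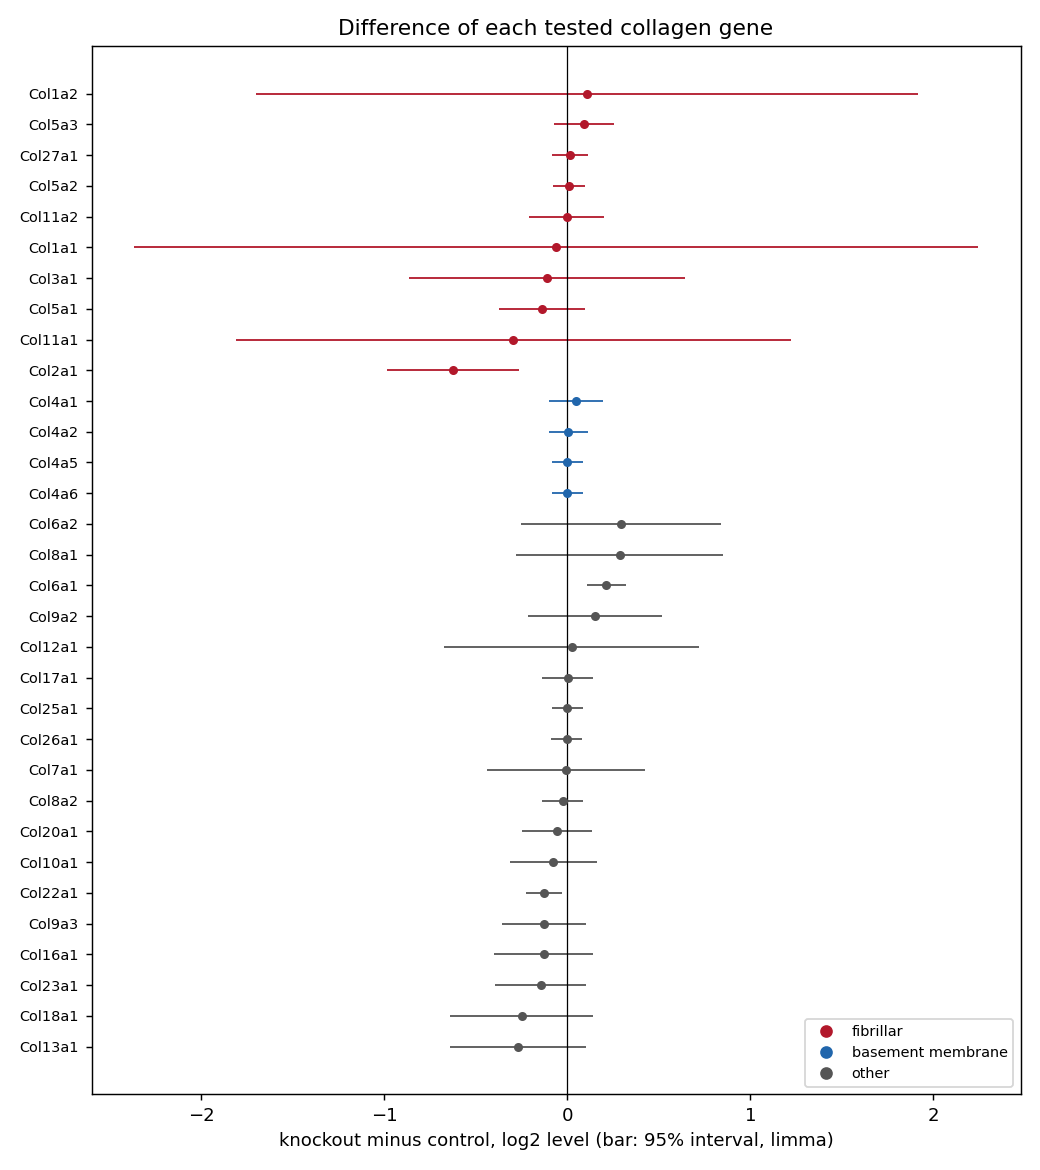
Difference in log2 level, knockout minus control, for the 32 tested collagen genes, in rows grouped by class. Points are differences from 2 knockout and 3 control arrays and bars are 95% intervals from limma. The intervals of Col2a1 and Col22a1 lie below 0 and that of Col6a1 above it, while those of Col1a1, Col1a2 and Col11a1 are the widest of the 32.

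Among fibrillar chains, 10 of 11 genes were tested. In the knockout 4 were higher and 6 lower, and the median difference was -0.03. The exception was Col24a1, dim at 4.44 on every array. The class had a median shift of -0.39 and 0.12 in knockout replicates 1 and 2, against -0.01, 0.05 and -0.01 on the control arrays. The knockout arrays therefore lay on opposite sides of the control arrays.

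Col2a1 is the chain of cartilage collagen and is also made in cushion and valve mesenchyme. It was the only fibrillar gene below all control values on both knockout arrays. It had 6.32 and 6.66 in the knockout arrays, against 6.998, 7.19 and 7.16 in the control arrays. Both knockout values lie below all control values. The mean was 6.49 ± 0.24 (SD, n = 2) for knockout arrays and 7.12 ± 0.10 (SD, n = 3) for control arrays, a 1.54-fold lower level. The log2 difference was -0.62 ± 0.13 (SE), with a 95% interval of -0.98 to -0.26 and an adjusted p of 0.394 in limma. Leaving out each array in turn gave -0.79 to -0.45, with the sign fixed because the groups do not overlap. Sox9, a transcription factor that activates Col2a1, had 6.71 and 7.19 in the knockout arrays, against 7.48, 7.26 and 7.19 in the control arrays. Its lowest value is that of knockout replicate 1, and knockout replicate 2 equals a control. Acan, a cartilage proteoglycan, was dim at 3.76 to 3.83 on all arrays. Of 12 somite and cartilage markers 5 were tested, 2 higher and 3 lower, with shifts of 0.03 and -0.04 in the knockout arrays, against -0.00, 0.01 and -0.00 in the control arrays. In whole hearts, fewer cells of a type and less RNA per cell cannot be told apart.

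Type I collagen, a heterotrimer of Col1a1 and Col1a2 chains and the main protein of connective tissue, differed more between the knockout arrays than between the groups. Col1a1 had 5.62 and 7.90 in the knockout arrays, against 7.05, 7.30 and 6.11 in the control arrays. Col1a2 had 5.48 and 7.37 in the knockout arrays, against 6.59, 6.49 and 5.89 in the control arrays. For both genes knockout replicate 1 was the lowest array, control replicate 3 the next, and knockout replicate 2 the highest. The group difference was -0.06 ± 0.84 (SE) for Col1a1 and 0.11 ± 0.65 (SE) for Col1a2, with adjusted p of 0.991 and 0.958 in limma. The 95% intervals, -2.37 to 2.25 for Col1a1 and -1.70 to 1.92 for Col1a2, leave differences of several fold in either direction unresolved. Without knockout replicate 2 the Col1a1 difference was -1.20 and without knockout replicate 1 it was 1.08. The corresponding values for Col1a2 were -0.84 and 1.05.

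Col3a1, which co-assembles with type I in elastic tissues, and Col11a1, which nucleates thin fibrils, followed the same order of arrays. Col3a1 had 6.93 and 7.73 in the knockout arrays, against 7.54, 7.504 and 7.29 in the control arrays. Col11a1 had 4.71 and 6.29 in the knockout arrays, against 5.73, 6.14 and 5.52 in the control arrays. The difference was -0.11 ± 0.27 (SE) for Col3a1 and -0.29 ± 0.55 (SE) for Col11a1, with adjusted p of 0.868 and 0.818 in limma. The full order, from knockout replicate 1 through control replicate 3 and the other controls to knockout replicate 2, was noticed after the values were seen. It held for 4 of 32 collagen genes, Col1a1, Col1a2, Col3a1 and Col11a1, and for 2.33% of all genes tested. Knockout replicate 1 was the lowest array for 13 of 32 collagen genes, beside 28.8% of all genes. It was the lowest with knockout replicate 2 the highest for 5 of 32, these 4 and Col16a1, beside 5.59%. The range over the 5 arrays was 2.28 for Col1a1, 1.89 for Col1a2 and 1.59 for Col11a1. These ranges were above those of 99.5%, 99.1% and 98.5% of genes tested. Among the control arrays alone the ranges were 1.19, 0.71 and 0.62. Knockout replicate 1, with the lowest levels, is the array with the higher macrophage and blood markers and the lowest erythroid shift. Control replicate 3, next in the order, has the highest erythroid shift, and knockout replicate 2, with the highest collagen levels, is the one with endoderm transcripts. Cushion mesenchyme markers (18 tested, 9 higher and 9 lower in the knockout) shifted by -0.18 and 0.00 in knockout replicates 1 and 2. Their shifts on the control arrays were 0.08, 0.06 and -0.13. Epicardial markers (10 tested, 6 higher and 4 lower) shifted by 0.05 and 0.39 in the knockout arrays, against 0.04, 0.07 and -0.09 in the controls. The part of any of these lists in the order was not tested.

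**Figure D2:**
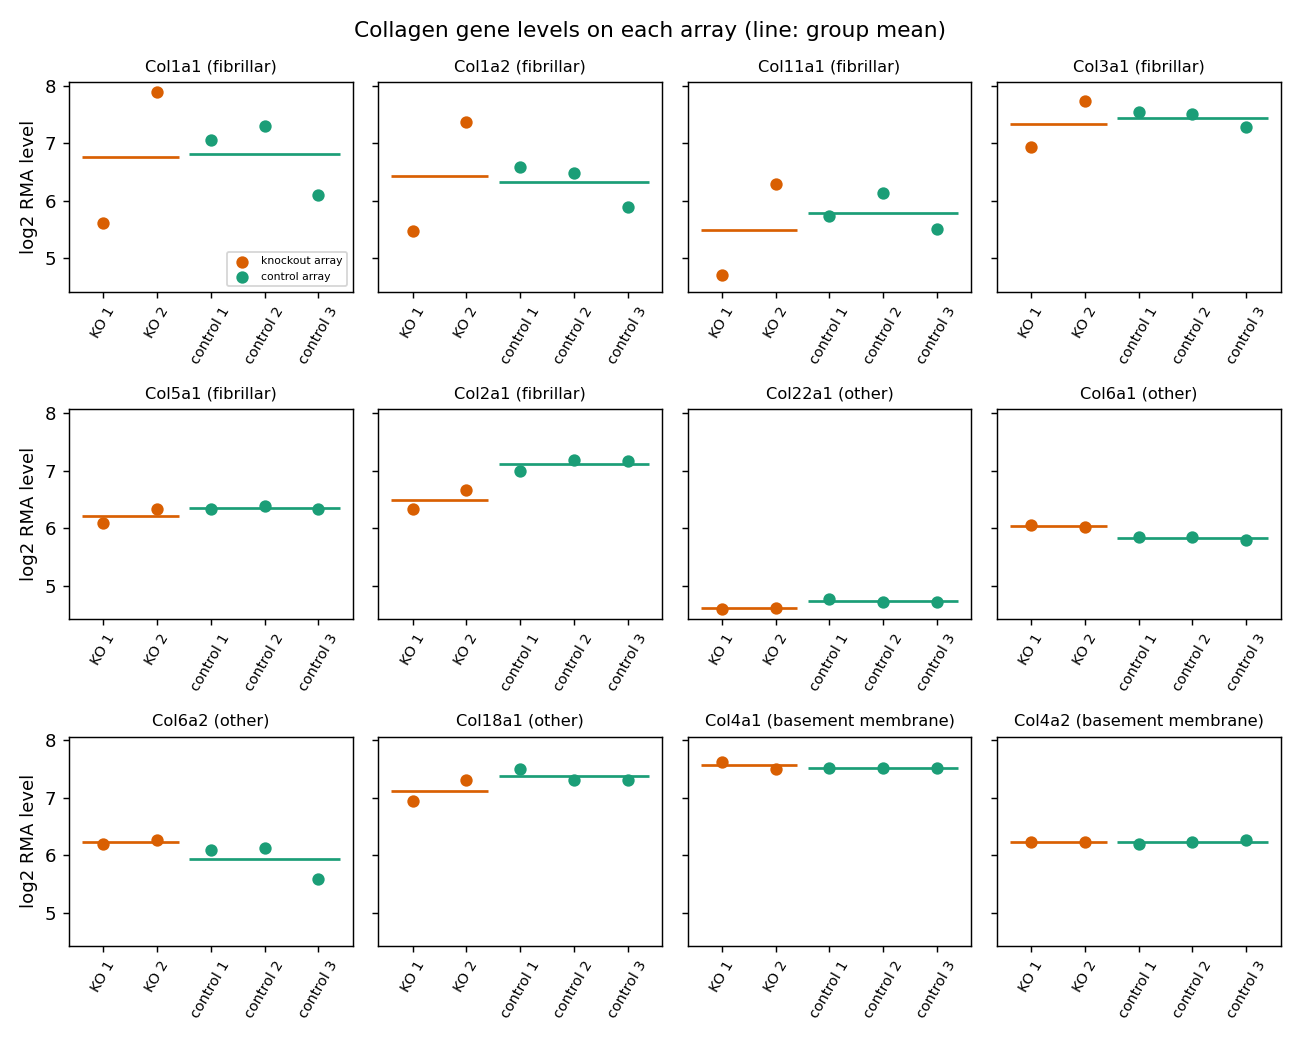
Log2 RMA level of 12 collagen genes on each array, with knockout arrays in orange and control arrays in green and lines at the group means. Col1a1 ranges from 5.62 to 7.90 with knockout replicates 1 and 2 at its ends, Col2a1 and Col22a1 lie lower on both knockout arrays, Col6a1 and Col6a2 lie higher on both, and Col4a2 is nearly level.

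The promoter windows of 3 of the 4 genes sharing this array order are shown because their levels ran together across arrays. Each runs from 250 bases before to 50 after the RefSeq start in GRCm38.p6. Windows were found for 35 of the 44 genes, and the counts take 1 window a gene, the first listed where a gene has several; those of Col1a1, Col2a1, Col4a3, Col5a2, Col9a3, Col12a1, Col14a1, Col22a1 and Col26a1 are not shown or searched. Capitals mark the CCAAT box (CCAAT), bound by the factor NF-Y, the core of the hypoxia response element (ACGTG) and the TATA box (TATAAA), each searched on both strands.
Col1a2 (chr6:4505368-4505667, plus strand): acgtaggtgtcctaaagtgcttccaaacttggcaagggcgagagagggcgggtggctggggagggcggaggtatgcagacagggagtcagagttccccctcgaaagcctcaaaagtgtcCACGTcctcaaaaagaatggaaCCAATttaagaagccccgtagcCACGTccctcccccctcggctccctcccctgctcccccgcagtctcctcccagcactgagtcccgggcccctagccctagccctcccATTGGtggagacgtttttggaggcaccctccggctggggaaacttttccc
Col3a1 (chr1:45311288-45311587, plus strand): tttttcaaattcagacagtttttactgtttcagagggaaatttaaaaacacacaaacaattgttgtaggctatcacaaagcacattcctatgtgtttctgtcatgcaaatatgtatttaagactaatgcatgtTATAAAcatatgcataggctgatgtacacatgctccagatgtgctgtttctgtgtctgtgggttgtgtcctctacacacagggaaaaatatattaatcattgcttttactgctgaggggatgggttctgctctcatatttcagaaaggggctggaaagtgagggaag
Col11a1 (chr3:114030290-114030589, plus strand): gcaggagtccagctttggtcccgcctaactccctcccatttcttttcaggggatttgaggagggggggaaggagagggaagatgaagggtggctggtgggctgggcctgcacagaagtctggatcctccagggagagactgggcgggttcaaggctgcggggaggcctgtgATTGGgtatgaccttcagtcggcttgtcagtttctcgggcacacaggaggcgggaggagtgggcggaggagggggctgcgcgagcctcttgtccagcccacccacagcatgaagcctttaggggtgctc
The Col1a2 window held a CCAAT box 109 bases before the start and another at the start, and hypoxia response cores 131 and 87 bases before it. The Col3a1 window held only a TATAAA, 117 bases before the start, and the Col11a1 window only a CCAAT box, 79 bases before it. On that count a CCAAT box was present in 12 of the 35 collagen windows (34.3%) and in 37.9% of the windows of all 27025 genes; the second window of Col9a1, not counted, held another. The hypoxia response core was present in 5 collagen windows (14.3%) and in 19.7% of all windows, and TATAAA in 5 (14.3%) and in 14.2%. These matches describe letters in the windows and are not evidence of binding.

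The type V chains, which set the diameter of type I fibrils, moved little. Col5a1 had 6.09 and 6.33 in the knockout arrays, against 6.33, 6.39 and 6.33 in the control arrays, a difference of -0.14 ± 0.09 (SE). Col5a2, which lies next to Col3a1 on chromosome 1, had 5.73 and 5.75 in the knockout arrays, against 5.73 on all control arrays. Col5a3 had 5.11 and 5.26 in the knockout arrays, against 5.06, 5.10 and 5.11 in the control arrays, a difference of 0.09 ± 0.06 (SE). The adjusted p was 0.57, 0.905 and 0.57 in limma for Col5a1, Col5a2 and Col5a3. The last 2 tested fibrillar genes, Col11a2 and Col27a1, differed by -0.00 and 0.02.

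Basement membrane collagen was nearly level across the arrays. Of the 6 type IV genes 4 were tested, with differences of 0.00 to 0.05 and a median of 0.00. Ties help to set that median: Col4a5 and Col4a6 hold 1 value on all arrays, and Col4a1 and Col4a2 hold 4 different values each. Col4a1 and Col4a2, the chains of the network found under most cell layers, are head-to-head neighbours on chromosome 8. Col4a1 had 7.63 and 7.49 in the knockout arrays, against 7.51, 7.51 and 7.52 in the control arrays. Col4a2 had 6.24 and 6.23 in the knockout arrays, against 6.19, 6.24 and 6.26 in the control arrays. Knockout replicate 1 was the highest array for Col4a1, and the groups overlapped for both genes. The difference was 0.05 ± 0.05 (SE) for Col4a1, with a 95% interval of -0.10 to 0.20, and 0.01 ± 0.04 (SE) for Col4a2, with an interval of -0.10 to 0.11. The adjusted p was 0.695 and 0.96 in limma. Without knockout replicate 2 the Col4a1 difference was 0.12.

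The promoter windows of this pair are shown because the genes start 21 bases apart on opposite strands, so that their windows share 78 bases. Capitals are as above.
Col4a1 (chr8:11312777-11313076, minus strand): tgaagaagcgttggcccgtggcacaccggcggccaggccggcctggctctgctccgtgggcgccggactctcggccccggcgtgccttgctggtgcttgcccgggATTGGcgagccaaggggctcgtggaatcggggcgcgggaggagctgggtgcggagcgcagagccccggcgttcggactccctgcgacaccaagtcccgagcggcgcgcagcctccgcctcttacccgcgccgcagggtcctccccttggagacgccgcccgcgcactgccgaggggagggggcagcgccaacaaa
Col4a2 (chr8:11312555-11312854, plus strand): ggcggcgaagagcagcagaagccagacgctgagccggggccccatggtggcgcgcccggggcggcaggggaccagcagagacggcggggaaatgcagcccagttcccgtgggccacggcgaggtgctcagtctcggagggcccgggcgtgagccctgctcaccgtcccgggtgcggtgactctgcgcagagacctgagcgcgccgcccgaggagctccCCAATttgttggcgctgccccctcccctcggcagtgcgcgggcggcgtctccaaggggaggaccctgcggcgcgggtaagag
Each window held 1 CCAAT box, 145 bases before the Col4a1 start and 32 bases before the Col4a2 start, and neither held ACGTG or TATAAA.

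Col4a5 and Col4a6, the paired X-linked chains of specialised basement membranes, were listed at 1 value on all 5 arrays, 6.16 and 5.66. Their fitted intervals of -0.08 to 0.08 come from the variance that limma shares across genes, since the arrays show none. Col4a3 and Col4a4, the remaining chains, were dim, at 4.13 to 4.43 and at 3.90 on every array. Ties between arrays are frequent in the deposited table, where 54.8% of genes tested share a value between 2 or more arrays. Among collagen genes 3 of 32, Col4a5, Col4a6 and Col25a1, were tied on all 5 arrays, beside 1.92% of all genes, and 9 had 5 different values, beside 45.2%. Equality on a tied probe set is thus a property of the table and does not show that a transcript was constant.

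**Figure D3:**
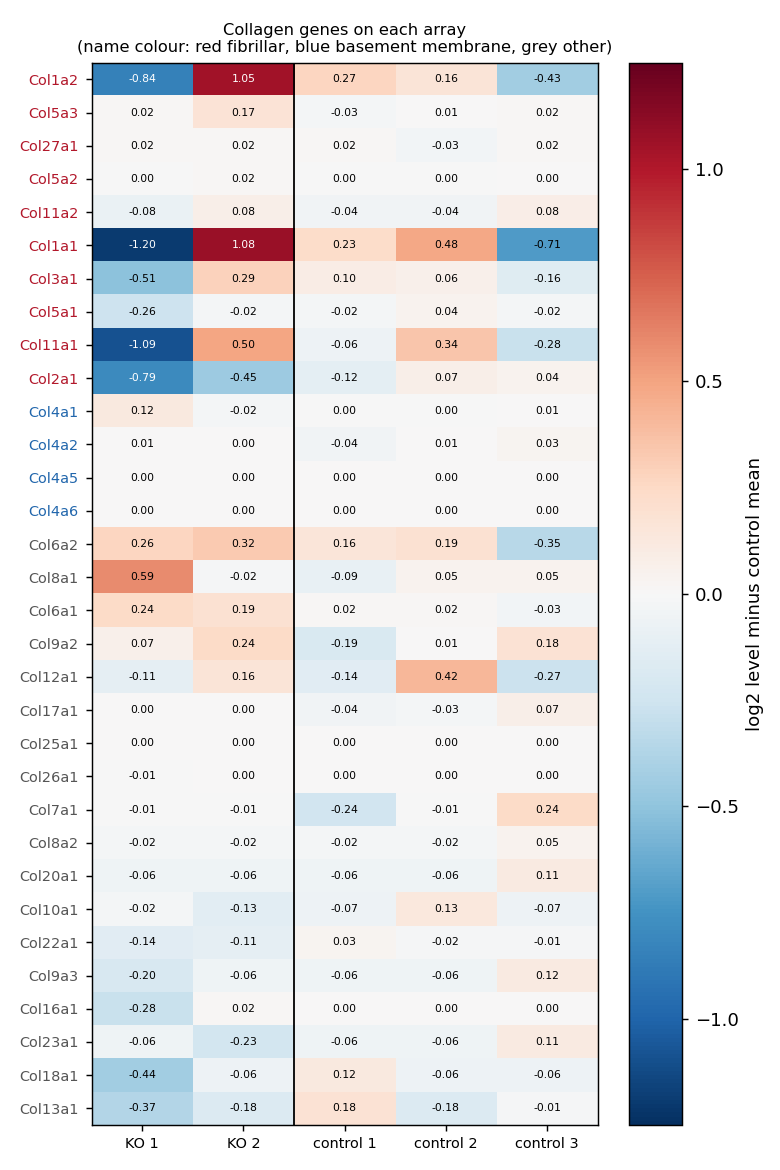
Log2 level minus the control mean for each of the 32 tested collagen genes (rows) on each array (columns), with the knockout arrays on the left. Col1a1 is at -1.20 and 1.08 in knockout replicates 1 and 2, Col2a1 is at -0.79 and -0.45, and the 4 basement membrane genes in blue stay between -0.04 and 0.12 on all arrays.

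Of the other 27 collagen genes 18 were tested, with 6 higher, 11 lower and 1 at 0, and a median difference of -0.02. Type VI collagen, which forms beaded filaments around cells, gave the 2 genes with the knockout above control. Col6a1 had 6.06 and 6.01 in the knockout arrays, against 5.84, 5.84 and 5.79 in the control arrays. Its mean was 6.03 ± 0.03 (SD, n = 2) for knockout arrays and 5.82 ± 0.03 (SD, n = 3) for control arrays. Control replicates 1 and 2 are tied at the same value, so the control SD rests partly on a tie. The log2 difference was 0.21 ± 0.04 (SE), a 1.16-fold higher level, with a 95% interval of 0.11 to 0.32 and an adjusted p of 0.355 in limma. On leaving out each array in turn it was 0.19 to 0.24, with the sign fixed because the groups do not overlap. Col6a2, its neighbour on chromosome 10 and partner in the trimer, had 6.20 and 6.26 in the knockout arrays, against 6.09, 6.13 and 5.58 in the control arrays. The difference was 0.29 ± 0.20 (SE), and without control replicate 3, its lowest array, it was 0.12. Col6a3, the third chain, was dim, at 4.25 and 4.68 in the knockout arrays, against 4.26, 4.25 and 4.12 in the control arrays. Only knockout replicate 2 passed the dim level there. Col6a4, Col6a5 and Col6a6 were dim on all arrays, with levels of 2.98 to 4.05.

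Among collagens that sit on fibrils, 6 of 9 were tested, 2 higher and 4 lower. Col22a1, found at tissue junctions such as that of muscle and tendon, was lower on both knockout arrays. It had 4.59 and 4.62 in the knockout arrays, against 4.76, 4.71 and 4.72 in the control arrays, just above the dim level of 4.44. Its difference of -0.13 ± 0.04 (SE) had an adjusted p of 0.494 in limma. Col16a1 had 4.48 and 4.77 in the knockout arrays, against 4.75 on all control arrays. Without knockout replicate 2 its difference was -0.28. The controls share 1 value, so the spread in that fit comes only from the variance that limma shares across genes. Knockout replicate 1, at 4.48, also lies just above the dim level of 4.44. With all 5 arrays the difference was -0.13, with an adjusted p of 0.586 in limma. Col12a1, which decorates type I fibrils in tissues under strain, had 6.45 and 6.72 in the knockout arrays, against 6.41, 6.97 and 6.29 in the control arrays. Col9a2, Col9a3 and Col20a1 differed by 0.15, -0.13 and -0.06. Col9a1, Col14a1 and Col19a1 were dim.

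Col18a1, a basement membrane zone collagen whose end fragment is endostatin, had 6.94 and 7.31 in the knockout arrays, against 7.496, 7.31 and 7.31 in the control arrays. Its difference was -0.25 ± 0.14 (SE), with an adjusted p of 0.57 in limma, and -0.06 without knockout replicate 1. Its relative Col15a1 was dim, at 4.05 to 4.12. Col8a1, a short-chain collagen of endothelial and smooth muscle cells, had 6.17 and 5.56 in the knockout arrays, against 5.48, 5.62 and 5.62 in the control arrays. Only knockout replicate 1 lay above the controls. In that array endothelial markers (14 tested, 9 with a higher and 5 with a lower knockout mean) had a median shift of 0.29. Their shift was 0.05 in knockout replicate 2 and -0.16 to 0.11 in the controls. The part of endothelial cells in the Col8a1 level was not tested. Col13a1, a transmembrane collagen of cell adhesion sites, had 5.56 and 5.75 in the knockout arrays, against 6.11, 5.75 and 5.91 in the control arrays, a difference of -0.27 ± 0.13 (SE). Col23a1, another transmembrane type, differed by -0.14, with 6.05 and 5.87 in the knockout arrays, against 6.05, 6.05 and 6.22 in the control arrays. Col7a1, Col8a2, Col10a1, Col17a1, Col25a1 and Col26a1 differed by -0.08 to 0.00, and Col28a1 was dim.

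Genes that modify, fold and cross-link collagen chains were listed from textbook roles. The list was chosen with earlier results of these data known, so its counts do not come from a blind choice. Of 37 listed genes 33 were tested, with 17 higher and 14 lower in the knockout and a median difference of 0.01. Of these 0 passed the adjusted threshold in limma. An unadjusted p under 0.05 was reached by 5 of 33, each higher in the knockout, beside 3.29% of all genes tested that were higher at that level and 8.78% in either direction. P4ha1, a catalytic subunit of the prolyl hydroxylase, had 8.87 and 8.67 in the knockout arrays, against 7.55, 7.58 and 7.80 in the control arrays. P4ha2, the alternative subunit, differed by 1.71 ± 0.20 (SE), and P4hb, the shared subunit, by 0.33 ± 0.04 (SE). Plod2, which hydroxylates the telopeptide lysines used for cross-links, differed by 1.295 ± 0.26 (SE). The fifth was the lysyl oxidase Loxl2, at 0.88, named here after its value was seen. The adjusted p was 0.333 for P4ha1, P4ha2 and P4hb and 0.372 for Plod2 in limma. Without knockout replicate 2, P4ha2 differed by 1.99. The collagen chaperone gene Serpinh1, also named after its value was seen, had 9.25 and 9.37 in the knockout arrays, against 9.38, 9.37 and 9.39 in the control arrays.

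Counts at an unadjusted p under 0.05 for partners and receptors of collagen stand beside 8.78% of all genes tested, or 5.49% lower. Fibril partners had 7 higher and 8 lower of 15 tested (median -0.01), and 1 was lower at an unadjusted p under 0.05. That was the microfibril gene Mfap5, at -0.20 ± 0.07 (SE). Basement membrane partners had 12 higher and 8 lower of 20 tested (median 0.04), and 1 was lower at that level. Frem1, a matrix protein of epithelial basement membranes, had 6.79 and 6.74 in the knockout arrays, against 7.37, 7.31 and 7.16 in the control arrays. Collagen receptors had 7 higher and 2 lower of 9 tested (median 0.19), beside 43.7% higher and 54.4% lower over all genes tested. Of these receptors 0 reached an unadjusted p under 0.05 or passed the adjusted threshold in limma. Their median shift was 0.10 and 0.07 in knockout replicates 1 and 2, against 0.05, 0.05 and -0.10 on the control arrays. The receptor with the smallest p, the discoidin domain kinase Ddr1, had 7.41 and 7.83 in the knockout arrays, against 7.91, 7.91 and 7.89 in the control arrays. Its difference was -0.28 with all arrays, with an adjusted p of 0.570 in limma, and -0.49 without knockout replicate 2.

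**Figure D4:**
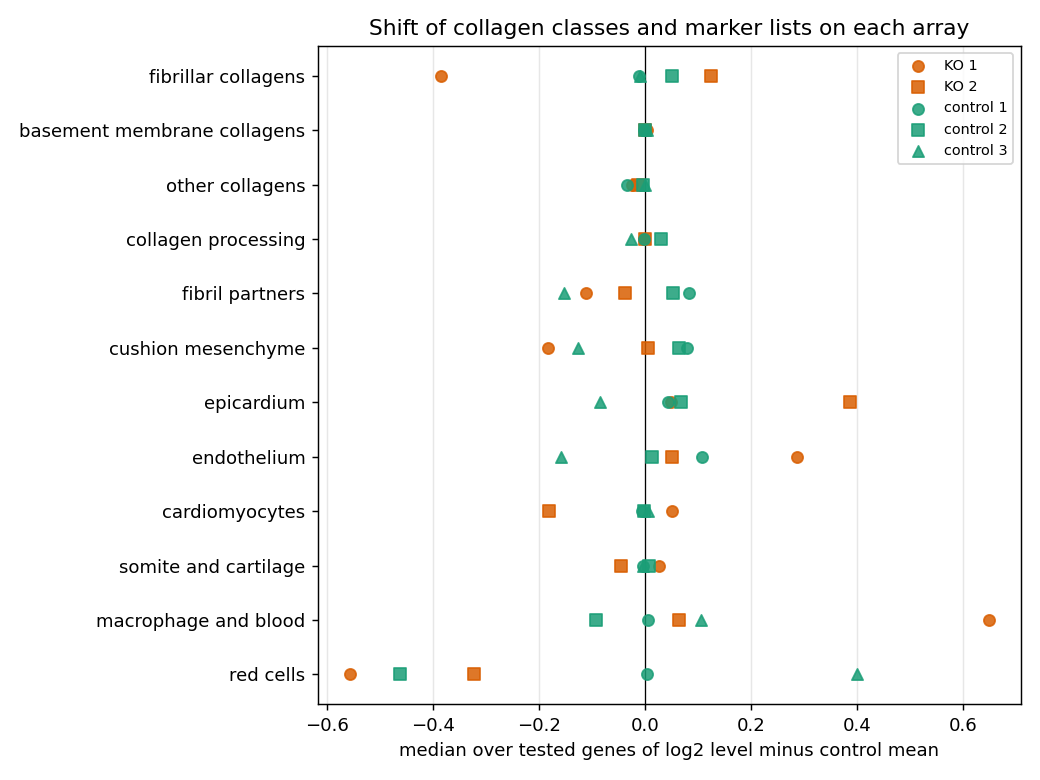
Median over the tested genes of log2 level minus the control mean on each array, for the 3 collagen classes and for marker lists, with knockout arrays in orange and control arrays in green. Fibrillar collagens lie at -0.39 and 0.12 in knockout replicates 1 and 2 while basement membrane and other collagens stay within 0.04 of 0. The basement membrane class includes Col4a5 and Col4a6, which are tied on all arrays. Endoderm markers, at 3.72 in knockout replicate 2, are not plotted.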

How the data were processed

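The data are Affymetrix arrays of mouse embryonic hearts, 2 knockout and 3 control. The authors deposited log2 expression levels per probe set, made with Affymetrix Expression Console and RMA per the submitters' processing notes; for their versions and settings and for the genome build, the sources used here give nothing. RMA equalises the distributions of the arrays and combines the probes of a set. Scanner values were not used here, so signal over background is not known. The number of arrays limits the precision.

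Symbols came from the platform annotation (23281 of 24479 probe sets) and were updated through Entrez numbers in a RefSeq gene table of GRCm38.p6 (23156 matched). Gene coordinates were used only for RefSeq promoter windows and for the order of protein-coding genes along chromosomes. The brightest probe set of a gene was kept. Genes with a mean level under the 40th percentile were set aside. Knockout minus control was fitted for all genes tested with lmFit and eBayes of limma 3.58.1 under R 4.3.3, two-sided and without covariates, and Benjamini-Hochberg adjustment over all of them. The steps were tested on simulated data. Classes follow collagen type: I, II, III, V, XI, XXIV and XXVII as fibrillar, IV as basement membrane. No class or list was tested; counts and medians stand beside those of all genes. The shift of a list was computed per array, as the median deviation of its tested genes from their control means.

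Values on every array are given for the tested chains of types I to VI and XVIII. They are also given for tested collagen genes with an unadjusted p under 0.05, a fold of at least 1.5 or no overlap between groups. Up to 4 members of each other list, those with the smallest p, could be named; genes beyond these were named after their values were seen. The collagen genes and lists were chosen with earlier results of these data known. Replicate numbers follow the order of deposition and pair nothing. Alternatives concerned the filter, array weights, the variance prior, centring, renormalization, the mean of probe sets, the class of types XV and XVIII, and leaving out each array.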

Additional observations from a re-analysis of the deposited data

How the results depend on the processing

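No paired analysis was possible because the labels share no replicate number between the groups. The count of collagen genes past the adjusted threshold in limma was 0 to 1 on leaving out each array, the 1 being Col16a1 without knockout replicate 2, and 0 in the other fits. Over all genes the count was 0 to 983, with 9 without knockout replicate 1 and 983 without knockout replicate 2. In those fits the single knockout array is assumed to vary like the controls. For Col16a1 the controls share 1 value, so its result there rests on the variance that limma shares across genes. Collagen genes at an unadjusted p under 0.05 numbered 2 to 9, the highest again without knockout replicate 2. The fibrillar median was -0.386 to 0.124 on leaving out arrays and -0.0921 with array weights. The basement membrane median was 0 to 0.0110 on leaving out arrays, 0 without a filter or with multiplexins in the class, 0.00885 with array weights, 0.0121 after quantile normalization and -0.0146 when centred. The median of other collagens was -0.0663 to -0.00193 on leaving out arrays, 0.0238 with the filter at the 50th percentile and -0.0352 after quantile normalization. The cause was not tested.

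Some differences changed sign. Among them, Col16a1, Col4a1 and Col8a1 changed sign without knockout replicate 1, at 0.0164, -0.0200 and -0.0184. Without knockout replicate 2 these genes kept the sign of the fit of all arrays, at -0.275, 0.118 and 0.592. On leaving out arrays the differences ran from -1.20 to 1.08 for Col1a1, -0.840 to 1.05 for Col1a2, -0.513 to 0.290 for Col3a1, -1.09 to 0.498 for Col11a1, -0.275 to 0.0164 for Col16a1, -0.0184 to 0.592 for Col8a1, -0.0200 to 0.118 for Col4a1 and -0.113 to 0.232 for Col12a1. They ran from -0.0839 to 0.0781 for Col11a2, -0.126 to 0.114 for Col7a1, -0.0207 to 0.0378 for Col17a1, -0.0135 to 0.0220 for Col4a2 and -2.33e-04 to 0.0192 for Col5a2. With array weights they were -0.0393 for Col1a2, -0.0513 for Col12a1, 0.0230 for Col11a2 and 0.0778 for Col7a1. After quantile normalization they were -0.0249 for Col17a1 and 0.00701 for Col26a1, and when centred -0.0163 for Col17a1, -0.00116 for Col27a1, -0.0116 for Col4a2 and -0.00810 for Col5a2. Col2a1, Col6a1 and Col22a1 kept their direction in each fit that held them. So did other collagen genes, among them Col5a1, Col6a2, Col13a1 and Col18a1. For Col2a1, Col6a1, Col6a2 and Col22a1, whose groups do not overlap, leaving out an array could not change the direction. Col22a1 was set aside by the filter at the 50th percentile.

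The wide intervals of the type I chains come from their spread over the 5 arrays, and probe sets with tied values give no measure of spread.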

Other observations

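The array order of Col1a1, Col1a2, Col3a1 and Col11a1 was also looked for in the other lists, after the collagen values were seen. It held for 2 of 33 tested collagen processing genes, P3h4 and Pcolce, of which Pcolce speeds removal of the procollagen end piece. It held for 3 of 20 basement membrane partners (Lama1, Lama5 and Smoc1), for 0 of 15 fibril partners and for 1 of 9 collagen receptors (Mrc2). Among cell type markers it held for 2 of 18 cushion mesenchyme genes, Snai1 and Tcf21, and for 2 of 10 epicardial genes, Tcf21 and Upk3b. The count was 0 of 16 cardiomyocyte, 0 of 14 endothelial and 0 of 13 endoderm genes. It was also 0 of 10 macrophage and blood, 0 of 8 erythroid and 0 of 5 somite and cartilage genes. Pcolce had 8.62 and 9.70 in the knockout arrays, against 9.43, 9.57 and 9.13 in the control arrays. Tcf21, a transcription factor of epicardial and fibroblast precursors, had 7.16 and 8.34 in the knockout arrays, against 8.12, 7.92 and 7.69 in the control arrays. Over all genes tested the order held for 2.33%.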
